A study of Homo sapiens with 6 samples.

Results

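Cortisol and synthetic glucocorticoids act through the glucocorticoid receptor, and the genes described here are the gene of that receptor, NR3C1, and 5 of its classical targets, FKBP5, TSC22D3, SGK1, KLF9 and ZBTB16. The genes were chosen by name, with earlier results of these data known, to look for steroid that might have been carried into the cultures from a medium used to make adipocytes. They are 6 of the 63140 genes listed, and 5 of the 6 are among the 14451 genes with enough counts to be tested.

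RNA was sequenced from BT-549 cells, an established human triple negative breast cancer line with no transgene (genotype WT), after 24 h in adipocyte-conditioned medium (ACM, 3 libraries) or in unconditioned medium (UCM, 3 libraries). Before treatment, cells of both groups were kept in RPMI-1640 with 10% fetal bovine serum approved for tetracycline systems and with 0.8 ug/mL insulin. ACM had been conditioned by OP9 mouse cells turning into adipocytes in a medium with albumin, oleate, insulin and a low share of serum, and no glucocorticoid is among its listed ingredients. The sample labels give 50% ACM and the study's methods give undiluted ACM, and the make-up of UCM is not given in the sources used here, so that base medium, serum, oleate and insulin cannot be told apart from adipocyte secretions.

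The ACM libraries (replicates 1, 2 and 3) held 21053214, 18011677 and 18378771 counts, and the UCM libraries held 20975771, 18591257 and 17135270. Values by library are given in the order of the replicates throughout. The labels give 3 replicates per condition in a 6-well plate and do not say whether the cultures were started separately, so the p-values measure the spread between these samples, which may be technical. In RNA from whole cultures, fewer cells that express a gene and less RNA per cell cannot be told apart.

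Without hormone, the glucocorticoid receptor sits in the cytoplasm in a complex with HSP90 and other chaperones. Hormone binding sends it to the nucleus, where it binds DNA as a dimer at paired half-sites and raises genes such as the 5 targets, or lowers inflammatory genes by interfering with NF-kB and AP-1. FKBP5 in turn lowers the receptor's affinity for hormone, and TSC22D3 encodes GILZ, a protein that dampens inflammatory signaling.

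The labels call the cells epithelial, and epithelial markers were close to absent. Over EPCAM, CDH1, KRT8, KRT18 and KRT19 the summed level in CPM, counts scaled to the size of the library, was 1.33, 1.30 and 1.96 in ACM and 1.52, 2.80 and 1.92 in UCM. Only CDH1 had enough counts to be tested (49 counts over the 3 ACM libraries and 71 over the 3 UCM libraries), and the counts in ACM and UCM were 2 and 0 for EPCAM, 15 and 10 for KRT8, 19 and 26 for KRT18, and 2 and 10 for KRT19. The mesenchymal markers VIM, CDH2, FN1 and ZEB1 were all tested, with VIM the most abundant, and their summed level was 4427, 4954 and 4519 CPM in ACM and 4299, 4134 and 4117 CPM in UCM. None of these 4 passed edgeR's test at an adjusted p of 0.05, against 5.56% of all tested genes. The lowest adjusted p was 0.169 for ZEB1 (log2 FC 0.40, or 0.23 without ACM replicate 2). At an unadjusted p of 0.05 in edgeR, 1 of them was higher, against 11.9% of all tested genes. DESeq2 and limma-trend on TPM called 0 of them, against 8.73% and 2.66% of all genes. FN1 had a log2 FC of 0.26 (adjusted p = 0.417), and of 0.16, 0.15 and 0.17 without ACM replicate 1, UCM replicate 2 or UCM replicate 3 (0.670, 0.726 and 0.707). FN1 passed without UCM replicate 1 (log2 FC 0.48, adjusted p = 0.0107), and ZEB1 with every gene of at least 1 count kept (adjusted p = 4.71e-04). ESR1 and PGR had 0 counts in every library, which allows up to 0.142 to 0.175 CPM per library, and the mean of ERBB2 was 74.0 ± 1.27 CPM (SD, n = 3) for ACM and 68.2 ± 5.88 CPM (SD, n = 3) for UCM.

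Markers of adipocytes and leukocytes were near 0 as well. The 7 adipocyte markers summed to 2.52, 2.08 and 3.10 CPM in ACM and to 1.52, 1.40 and 1.92 CPM in UCM, nearly all of it from CFD. CFD was the only one tested (log2 FC 0.67, edgeR adjusted p = 0.197); ADIPOQ, LEP and CIDEC had 0 counts in all libraries, and the counts in ACM and UCM were 2 and 0 for PLIN1, 3 and 1 for FABP4, and 0 and 2 for LPL. PTPRC (15 and 13 counts) and CD14 (17 and 24 counts) were too low to be tested, and summed to 0.665, 0.563 and 0.435 CPM in ACM and 0.426, 1.02 and 0.525 CPM in UCM.

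Promoter sequences of the members are shown because the receptor acts on its targets through a DNA element. The table of RefSeq promoters used here (GRCh38.p14) holds windows, from 250 bases before to 50 bases after a start, for 5 of the 6 genes, with 17 windows among them. The half-site AGAACA, searched on both strands (TGTTCT on the other), occurred in 2 of these 17 windows and in 14.8% of all 35116 windows. Those 2 windows belong to FKBP5 (chr6:35728534-35728833, minus strand) and SGK1 (chr6:134177812-134178111, minus strand), and capitals mark the half-site.
FKBP5 promoter: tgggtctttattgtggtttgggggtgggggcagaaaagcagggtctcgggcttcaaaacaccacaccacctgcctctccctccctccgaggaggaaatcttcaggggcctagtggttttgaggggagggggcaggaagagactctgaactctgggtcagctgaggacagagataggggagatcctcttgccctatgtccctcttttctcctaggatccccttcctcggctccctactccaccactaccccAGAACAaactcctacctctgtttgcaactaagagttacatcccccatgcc
SGK1 promoter: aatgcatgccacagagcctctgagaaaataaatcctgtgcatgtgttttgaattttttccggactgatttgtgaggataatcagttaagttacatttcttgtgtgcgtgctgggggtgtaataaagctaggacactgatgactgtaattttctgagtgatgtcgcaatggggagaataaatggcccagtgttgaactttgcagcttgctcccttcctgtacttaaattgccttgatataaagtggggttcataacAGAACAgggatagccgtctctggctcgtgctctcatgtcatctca

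The full element, a half-site followed by a spacer of 3 bases and by the half-site in reverse complement, reads the same on both strands. It occurred in 0.00285% of all promoter windows and in 0.387% of all windows reaching 10 kb to either side of a start, and in 0 of the members' 17 windows of either kind. After this was seen, a looser form was searched, GNACANNNTGTNC, which also reads the same on both strands and which every full element contains. The looser form occurred in 0.39% of promoter windows and in 0 of the members' 17. Within 10 kb of a start it occurred in 23.0% of all windows and in 9 of the members' 17, namely in 2 of 2 for FKBP5, 4 of 4 for TSC22D3, 2 of 3 for SGK1, 1 of 1 for KLF9 and 0 of 7 for NR3C1. Some windows of TSC22D3 and of SGK1 overlap each other, and a window of FKBP5 and windows of SGK1 hold 2 matches each. The 9 windows thus hold 8 separate matches, 4 in introns, 2 in exons and 2 outside the gene.

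The 6 matches outside exons are given with their surroundings on GRCh38, minus strand, with the match in capitals, since they are the places near these genes where the letters of the looser form occur. For FKBP5 they are at chr6:35687738-35687790 (intron, 1151 bases downstream of the nearest start), chr6:35728094-35728146 (intron, 463 bases downstream) and chr6:35731999-35732051 (outside the gene, 3442 bases upstream). The others are at chrX:107767825-107767877 for TSC22D3 (intron, 7936 bases downstream), chr6:134176005-134176057 for SGK1 (intron, 1165 bases upstream of the nearest start) and chr9:70420106-70420158 for KLF9 (outside the gene, 5475 bases upstream). A match is a description of the letters, and binding of the receptor was not measured.
FKBP5 intron, 1151 downstream: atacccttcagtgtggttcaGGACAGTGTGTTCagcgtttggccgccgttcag
FKBP5 intron, 463 downstream: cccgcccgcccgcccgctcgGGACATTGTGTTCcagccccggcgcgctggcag
FKBP5 outside, 3442 upstream: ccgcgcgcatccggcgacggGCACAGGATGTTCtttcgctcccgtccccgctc
TSC22D3 intron: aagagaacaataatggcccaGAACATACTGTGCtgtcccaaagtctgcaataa
SGK1 intron: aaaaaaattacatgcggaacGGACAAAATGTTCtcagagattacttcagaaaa
KLF9 outside: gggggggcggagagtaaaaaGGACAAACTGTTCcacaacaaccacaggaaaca

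The levels of the 6 genes spanned a wide range on the length-scaled unit TPM (transcript counts scaled to length and library). In UCM the order was SGK1 (85.2 ± 15.5 TPM, SD, n = 3), NR3C1 (71.7 ± 3.33), TSC22D3 (10.9 ± 1.41), KLF9 (1.74 ± 0.252), FKBP5 (0.91 ± 0.10) and ZBTB16 (0.137 ± 0.131). In ACM the order was the same, with SGK1 at 69.1 ± 3.33 TPM, NR3C1 at 60.9 ± 5.09, TSC22D3 at 7.89 ± 0.962, KLF9 at 1.58 ± 0.161, FKBP5 at 0.91 ± 0.243 and ZBTB16 at 0.0867 ± 0.0702. The libraries of SGK1 and NR3C1 overlapped in both groups, so these neighbors did not differ beyond their spread, and the libraries of all other neighbors lay apart in both groups. Among all tested genes in UCM, SGK1 stood at percentile 85.7 of the TPM level and NR3C1 at 83.1, while KLF9 stood at 14.8 and FKBP5 at 8.25. The receptor gene and SGK1 were thus among the more abundant transcripts, while FKBP5, KLF9 and ZBTB16 were near the lower end.

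**Figure D1:**
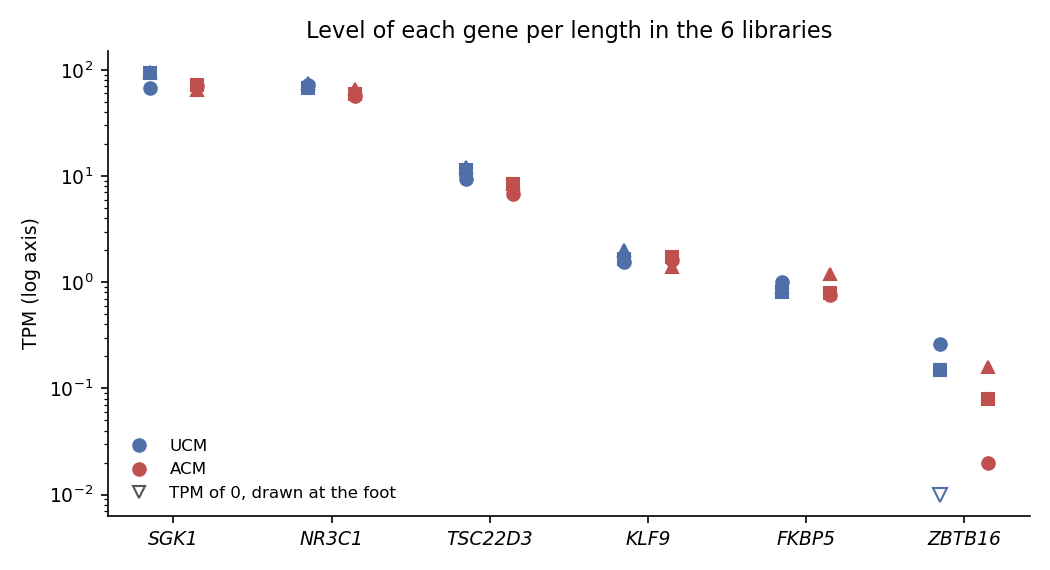
TPM (log axis) of each gene in the 3 UCM (blue) and 3 ACM (red) libraries, 1 point per library with the shape giving the replicate, ordered by the mean in UCM; an open triangle at the foot stands for a TPM of 0. SGK1 (65.2 to 95.6 TPM) and NR3C1 (56.6 to 74.5 TPM) overlap at the top, and FKBP5 (0.75 to 1.19 TPM) and ZBTB16 (0 to 0.26 TPM) are the lowest.

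With group as the only term, none of the 5 tested genes passed edgeR's quasi-likelihood test at an adjusted p of 0.05. The count was 0 of 5 in either direction against 5.56% of all 14451 tested genes (804), 0 higher in ACM against 3.35% (484), and 0 lower against 2.21% (320). DESeq2 called 0 of these 5, against 5.52% of all genes higher and 3.21% lower, and limma-trend on TPM 0 of the 4 it tested, against 1.66% higher and 1% lower. At an unadjusted p of 0.05, 2 of 5 passed in edgeR, NR3C1 and TSC22D3, against 23.3% of all genes, and both were lower in ACM, against 11.5% of all genes, and 0 higher, against 11.9%. All 3 ACM libraries lay below all 3 UCM libraries in CPM for 1 of 5 genes, against 15.1% of all genes, and above them for 0 of 5, against 13.9%. In TPM the ACM libraries lay below for 2 of 5, against 14.6%. The number of members called was 2 without UCM replicate 1, where 8.92% of all tested genes were called. The number of all genes called fell to 284 without ACM replicate 2, 510 without ACM replicate 3, 195 without UCM replicate 2 and 218 without UCM replicate 3, and was 1310 without UCM replicate 1.

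NR3C1 (ENSG00000113580, chr5:143277931-143435512, minus strand) encodes the receptor itself. Its level was 208.9, 224.1 and 234.3 CPM in ACM and 267.0, 248.7 and 276.1 CPM in UCM. All 3 ACM libraries were below all 3 UCM libraries in CPM, and the same held in TPM, where ACM gave 56.6, 59.5 and 66.5 and UCM gave 72.7, 68.0 and 74.5. The difference was a log2 FC of -0.25 (SE 0.07, 95% interval -0.40 to -0.09), with an edgeR p of 0.00553 and an adjusted p of 0.0710, so it did not pass. With every gene of at least 1 count kept, the log2 FC was -0.24 and the edgeR adjusted p was 0.0386; over the 14 alternatives tried the log2 FC was below 0 in all and the adjusted p ranged from 0.0272 to 0.298.

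FKBP5 (ENSG00000096060, chr6:35573585-35728583, minus strand), the HSP90 cochaperone that feeds back on the receptor, was measured with few counts. The ACM libraries had 40, 35 and 53 counts (1.90, 1.97 and 2.88 CPM) and the UCM libraries had 51, 37 and 38 (2.42, 1.99 and 2.22 CPM). The groups overlapped, with the highest and the lowest library both in ACM. The log2 FC was 0.02 (SE 0.28) with an edgeR adjusted p of 0.970, and its 95% interval of -0.59 to 0.64 left room for a difference of up to that size in either direction. Its sign turned without ACM replicate 3 (log2 FC -0.19) and without UCM replicate 2 (log2 FC -0.04).

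TSC22D3 (ENSG00000157514, chrX:107713221-107777342, minus strand) had the lowest log2 FC of the 5 tested genes. It was at 8.03, 8.22 and 9.40 CPM in ACM and at 9.29, 12.8 and 12.2 CPM in UCM. UCM replicate 1 lay just below ACM replicate 3 in CPM, so the groups overlapped. In TPM they did not, with 6.78, 8.49 and 8.40 in ACM and 9.31, 11.3 and 12.0 in UCM; TPM was compared for this after the values had been seen. The log2 FC was -0.42 (SE 0.16, 95% interval -0.77 to -0.07), with an edgeR p of 0.0244 and an adjusted p of 0.148, which did not pass. Without UCM replicate 1 the log2 FC was -0.54 and the adjusted p was 0.0459, and over the 14 alternatives the edgeR, DESeq2 and limma adjusted p ranged from 0.0459 to 0.436.

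SGK1 (ENSG00000118515, chr6:134169248-134318112, minus strand) encodes a kinase that regulates ion channels and cell survival. Its level was 103.1, 107.9 and 97.7 CPM in ACM and 90.3, 135.2 and 133.4 CPM in UCM. UCM replicate 1 was the lowest of all 6 libraries and the other UCM libraries were the highest, so the UCM group spanned the ACM group. The log2 FC was -0.22 (SE 0.15, 95% interval -0.56 to 0.12) with an edgeR adjusted p of 0.431. Without UCM replicate 1 the log2 FC was -0.38 and the adjusted p was 0.00832, the lowest of the range of 0.00832 to 0.775 over the 14 alternatives. The log2 FC was -0.12 without UCM replicate 2 and -0.12 without UCM replicate 3.

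KLF9 (ENSG00000119138, chr9:70384604-70414657, minus strand) encodes a transcription factor of the Krüppel-like family. It was at 5.66, 6.08 and 4.78 CPM in ACM and at 5.21, 5.75 and 6.94 CPM in UCM. The groups overlapped, with the lowest library in ACM and the highest in UCM. The log2 FC was -0.11 (SE 0.18, 95% interval -0.52 to 0.30) with an edgeR adjusted p of 0.770, and without UCM replicate 3 it was 0.02. It was -0.02 without ACM replicate 3, -0.19 without ACM replicate 2 and -0.19 without UCM replicate 1.

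ZBTB16 (ENSG00000109906, chr11:114059041-114256765, plus strand) encodes a zinc finger repressor that glucocorticoids raise in many cell types. The ACM libraries held 2, 4 and 2 counts of it and the UCM libraries 4, 5 and 0, too few to be tested. The 8 counts in ACM and 9 in UCM gave a ratio of 0.884 with a 95% Clopper-Pearson interval of 0.297 to 2.58, which covers counting error only. The log2 ratio of -0.18 turned to 0.07 without ACM replicate 1 and 0.42 without UCM replicate 2, and was -0.64 without ACM replicate 2 and -0.70 without UCM replicate 3, so the counts fix no direction.

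**Figure D2:**
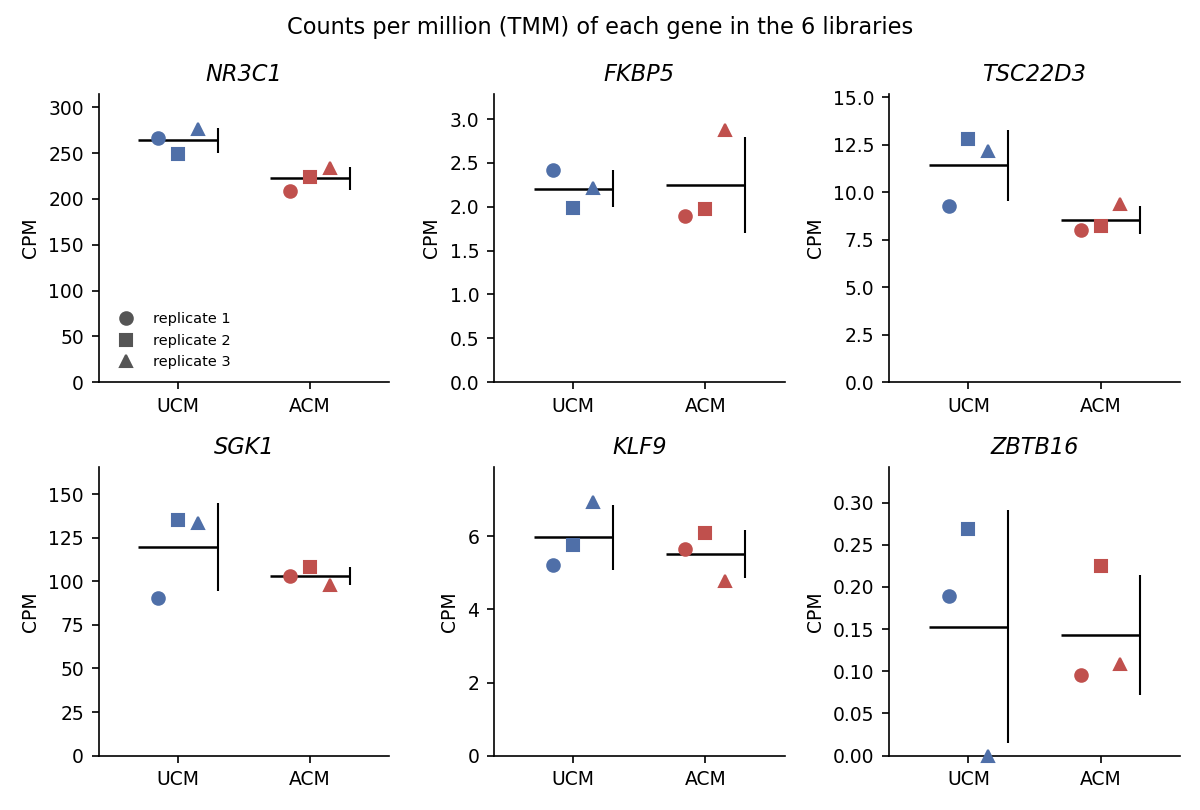
CPM of each gene in the 3 UCM (blue) and 3 ACM (red) libraries, 1 point per library with the shape giving the replicate, each panel with its own axis from 0; horizontal lines are group means and vertical lines are 1 SD to either side. The groups do not overlap for NR3C1 (at most 234.3 CPM in ACM and at least 248.7 in UCM), and UCM replicate 1 lies apart from the other UCM libraries for SGK1 (90.3 CPM) and TSC22D3 (9.29 CPM).

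Within UCM, replicate 1 had the lowest level of SGK1, TSC22D3 and KLF9 and the highest level of FKBP5. Across the 6 libraries, Pearson's r of log2 CPM was 0.79 between SGK1 and TSC22D3, 0.73 between SGK1 and KLF9, and 0.72 between TSC22D3 and NR3C1. It was -0.61 between FKBP5 and KLF9, -0.44 between FKBP5 and SGK1, and between 0.04 and 0.38 for the other 5 pairs. These 10 values describe 6 libraries that share the group difference and the library depth, and the low counts of FKBP5, KLF9 and TSC22D3 add counting noise to them.

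**Figure D3:**
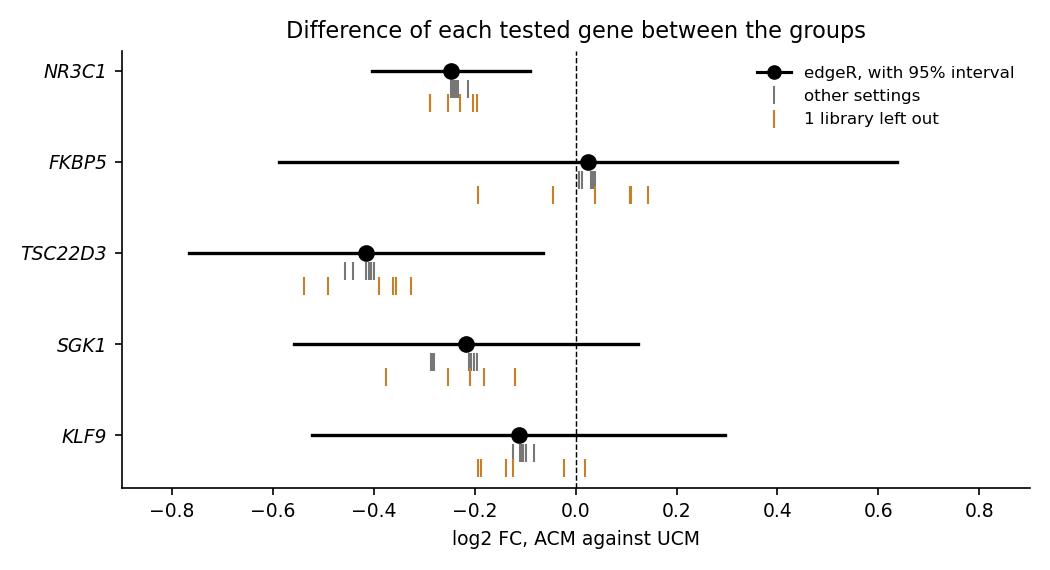
Log2 FC of ACM against UCM for the 5 tested genes, with black points and bars for the edgeR estimate and its 95% interval, gray marks for other settings and orange marks for fits with 1 library left out. The intervals of NR3C1 (-0.40 to -0.09) and TSC22D3 (-0.77 to -0.07) lie below 0, and the marks of FKBP5 and KLF9 fall on both sides of 0.

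The genes most like each member were taken as those with the highest Pearson's r of log2 CPM over the same 6 libraries, among 13349 genes averaging at least 1 CPM. For NR3C1 these were YWHAG (0.99), H4C14 (0.986) and TMEM131L (0.986). For TSC22D3 they were YBX1 (0.998), AMACR (0.997) and BASP1 (0.997), and for SGK1 they were RPL10A (0.993), RARS2 (0.992) and H2AJ (0.992). Of the 13349 genes, 854 had an r above 0.9 with TSC22D3, 241 with NR3C1 and 156 with SGK1. A high r over 6 points thus does not single out a gene. FKBP5 had 32 such genes, led by NCAPD3 (0.972), SENP1 (0.971) and PDS5A (0.964), and KLF9 had 36, led by MTA1-DT (0.984), PLBD1-AS1 (0.984) and ZNF70 (0.978). None of these 15 genes passed edgeR's test (5.56% of all tested genes did), the lowest adjusted p being 0.0846 for H4C14.

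The effective length of a gene is an estimate, for each library, of its transcript length weighted by abundance, and it divides the TPM. It changes when a gene switches between long and short transcripts. It also varied without such a switch, from 4918 to 4925 bases for KLF9, which has 1 annotated transcript. For SGK1 the effective length was 2063, 2095 and 2165 bases in ACM and 1945, 2065 and 1999 bases in UCM. The groups overlapped for SGK1, with a mean 104.7 bases (5.22%) longer in ACM (exact two-sided permutation p = 0.2, where 3 against 3 libraries cannot go below 0.1). For NR3C1, with 17 annotated transcripts, it was 5224, 5213 and 5091 bases in ACM and 5333, 5163 and 5314 bases in UCM, a difference of -94.0 bases (-1.78%, exact p = 0.3), or of -51.5 bases without ACM replicate 3, -62.4 without UCM replicate 1 and -147.6 without UCM replicate 2. TSC22D3 ranged from 1340 to 1676 bases, with both ends in ACM, and differed by 43.6 bases (2.91%, exact p = 0.8), or by between -22.3 bases (without ACM replicate 1) and 145.8 bases (without ACM replicate 2) with 1 library left out. FKBP5 differed by 46.5 bases (1.34%, exact p = 0.2), or by 19.6 bases without ACM replicate 1 and 69.9 bases without ACM replicate 2. KLF9, with 1 annotated transcript, differed by 1.06 bases (exact p = 0.7), or by -0.453 bases without UCM replicate 1. The estimate for ZBTB16 ranged from 985 to 6649 bases on its few counts (exact p = 0.5). The groups overlapped for each of the 6 genes. The share of all genes whose effective lengths lie apart is not given here, so this is a description only.

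The strand of counting is not given in the sources used here, so reads of a member and of a gene that overlaps it cannot be told apart. KLF9 overlaps 0 other annotated genes, and the genes that overlap the other 5 members held at most 4 counts over all 6 libraries.

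A list of chaperones and of proteins that work with them on the receptor held 16 genes, all tested. Of these, 15 had a log2 FC below 0. At edgeR's adjusted p of 0.05, 3 fell (4 with DESeq2), against 2.21% of all tested genes (3.21% with DESeq2). Limma-trend on TPM called 2 of the 16 lower, against 1% of all genes. The median log2 FC of the 16 was -0.19, against -0.01 over all tested genes, of which 6954 lay above 0 and 7497 below. Their summed level was 7479, 7271 and 8004 CPM in ACM and 8742, 9186 and 9137 CPM in UCM, with every ACM library below every UCM library and HSP90AA1 the most abundant. HSPA8, the constitutive HSP70, was at 1555, 1551 and 1666 CPM in ACM and 1986, 2114 and 2087 CPM in UCM (log2 FC -0.37, edgeR adjusted p = 0.0164). DNAJB1, an HSP40 cochaperone, was at 124.1, 118.2 and 109.1 CPM in ACM and 136.4, 150.4 and 148.9 CPM in UCM (log2 FC -0.31, edgeR adjusted p = 0.0384). HSP90AB1, the constitutive HSP90, was at 1549, 1450 and 1583 CPM in ACM and 1846, 1857 and 1866 CPM in UCM (log2 FC -0.28, edgeR adjusted p = 0.0433). The call was lost for HSPA8 without ACM replicate 2, UCM replicate 2 or UCM replicate 3 (edgeR adjusted p 0.0610, 0.108 and 0.108), and for DNAJB1 without those or ACM replicate 3 (0.117, 0.175, 0.175 and 0.0961). HSP90AB1 lost it without any 1 of the libraries but UCM replicate 1 (edgeR adjusted p 0.0722 to 0.206). DNAJB1 and HSP90AB1 also lost it with effective length as an offset, DNAJB1 with limma-trend on TPM and HSP90AB1 with RLE size factors. HSPA1A and HSPA1B are near copies, and the split of their reads is uncertain.

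Coregulators that the receptor recruits to chromatin were 13 tested genes with a median log2 FC of -0.05 (-0.0075 without ACM replicate 2 and -0.09 without ACM replicate 3), 4 above 0 and 9 below, and 1 gene of the list was not analysed here. NCOA1, a coactivator of steroid receptors, fell, from 19.0, 19.6 and 22.6 CPM in UCM to 12.8, 15.1 and 16.0 CPM in ACM (log2 FC -0.48, edgeR adjusted p = 0.0484), as 1 of 13 against 2.21% of all tested genes. That call was lost without any 1 of the libraries but UCM replicate 1 (edgeR adjusted p 0.0670 to 0.210), and also with RLE size factors, limma-trend on TPM and effective length as an offset. NRIP1, a corepressor, was too low to be tested (26 counts in ACM, 8 in UCM).

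Of 8 genes in the files that make, inactivate, carry or export glucocorticoids, 4 had 0 counts in every library. These were HSD11B1, which regenerates cortisol from cortisone, the drug exporter ABCB1 and the steroid-metabolizing genes AKR1D1 and CYP3A4. SERPINA6, the plasma carrier of cortisol, was read 7 times in ACM and 3 times in UCM. For the 3 tested genes the median log2 FC was 0.15, with 2 above 0 and 1 below. The list median was 0.25 with DESeq2, and 0.25 when every gene of at least 1 count was kept. EdgeR called 0 of the 3 at the adjusted p, against 5.56% of all tested genes. At an unadjusted p of 0.05 it called 0, against 23.3%. DESeq2 and limma-trend on TPM each gave an adjusted p for 2 and called 0, against 8.73% and 2.66% of all genes. H6PD, which supplies NADPH to HSD11B1, was at 76.2, 80.0 and 77.2 CPM in ACM and 71.8, 66.7 and 71.8 CPM in UCM, so that every ACM library was above every UCM library (log2 FC 0.15, 95% interval -0.00 to 0.30, edgeR adjusted p = 0.223). With limma-trend on TPM the log2 FC of H6PD was 0.084 with 1 added and 0.090 with 0.1 added. CYP3A5 (50 counts in ACM, 39 in UCM) overlapped between groups (log2 FC 0.34, edgeR adjusted p = 0.690), and its log2 FC was 0.15 without ACM replicate 3, 0.13 without UCM replicate 2 and 0.67 without UCM replicate 3. HSD11B2, which inactivates cortisol, was the remaining tested gene (70 counts in ACM, 83 in UCM) and is named here after its values were seen.

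The related receptors NR3C2, ESR2, PGR and ESR1 were too low to be tested. Counts in ACM and UCM were 5 and 7 for NR3C2, the mineralocorticoid receptor, 16 and 21 for ESR2, and 0 for PGR and ESR1.

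Besides the members, 21 genes that glucocorticoids raise in various tissues were listed, and 11 of them were tested. Of these, 8 had a log2 FC above 0 and 3 below, with a median of 0.23, and 2 rose and 1 fell, against 3.35% and 2.21% of all tested genes. DESeq2 and limma-trend on TPM each gave an adjusted p for 10. DESeq2 called 3 higher, with ERRFI1 in addition, and 1 lower, against 5.52% and 3.21% of all genes. Limma-trend called 1 higher and 1 lower, against 1.66% and 1% of all genes. ERRFI1, an inhibitor of EGFR, was at 202.1, 342.9 and 244.6 CPM in ACM and 162.5, 109.9 and 128.7 CPM in UCM (log2 FC 0.98, edgeR adjusted p = 0.0700). CRISPLD2, a secreted protein that dampens cytokine responses, was at 126.3, 98.7 and 117.8 CPM in ACM and 253.4, 254.9 and 244.0 CPM in UCM. The groups lay far apart, and CRISPLD2 fell with a log2 FC of -1.13 (SE 0.09, edgeR adjusted p = 5.27e-04), which was kept in every alternative. CEBPD, a transcription factor of acute inflammation and early adipogenesis, was at 119.7, 166.6 and 135.9 CPM in ACM and 46.8, 64.6 and 68.2 CPM in UCM. CEBPD rose with a log2 FC of 1.23 (SE 0.17, edgeR adjusted p = 0.0121), and the call was lost without UCM replicate 2 (adjusted p = 0.0509). DUSP1, a phosphatase that turns off MAP kinases, was at 66.6, 82.2 and 63.8 CPM in ACM and 44.9, 47.8 and 54.5 CPM in UCM. DUSP1 rose with a log2 FC of 0.53 (SE 0.11, edgeR adjusted p = 0.0258), and the call was lost without ACM replicate 2 (adjusted p = 0.0825), without UCM replicate 2 (0.117) and with limma-trend on TPM. The median of the list was 0.42 without ACM replicate 1, 0.07 without ACM replicate 2 and 0.08 without UCM replicate 1.

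The other 10 genes of that list were too low to be tested. FGD4, PCK1 and G6PC1 had 0 counts, and the counts in ACM and UCM were 4 and 3 for SCNN1A, 5 and 0 for MAOA, 9 and 24 for TFCP2L1, 2 and 7 for KLF15, 27 and 28 for RGS2, 0 and 1 for TAT, and 3 and 1 for IGFBP1. Several of these are raised by glucocorticoids mainly in liver, muscle or kidney.

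A separate list held genes that glucocorticoids raise and that fatty acids, metals, cell stress or NF-kB raise as well. All 8 tested genes had a log2 FC above 0, with a median of 1.64, and 5 rose (3.35% of all tested genes did) and 0 fell at edgeR's adjusted p (6 and 0 at an unadjusted p of 0.05, where 11.9% of all genes were higher, and 6 and 0 with DESeq2, where 5.52% were); 1 gene of the list was not analysed here. Limma-trend on TPM called 5 higher and 0 lower, against 1.66% of all genes higher. ANGPTL4, a lipoprotein lipase inhibitor that fatty acids induce through PPARs, was at 222.5, 351.8 and 196.4 CPM in ACM and 29.7, 26.0 and 27.3 CPM in UCM, and rose with a log2 FC of 3.21 (edgeR adjusted p = 0.00294). PDK4, a kinase that shuts off glucose oxidation, was at 10.1, 52.3 and 17.8 CPM in ACM and 0.284, 0.591 and 0.175 CPM in UCM, where it rested on 20 counts (log2 FC 6.22, edgeR adjusted p = 0.0335). The log2 FC of PDK4 was 5.28 without ACM replicate 2, 5.49 with the effective length offset, and 3.05 or 4.71 with limma-trend on TPM with 1 or 0.1 added. The metallothionein MT2A was at 943.2, 1719 and 1160 CPM in ACM and 370.1, 296.8 and 254.6 CPM in UCM (log2 FC 2.05, edgeR adjusted p = 0.0129). ACM replicate 2 was the highest library for ANGPTL4, PDK4 and MT2A, and no group overlapped the other. MT1X had a log2 FC of 2.25 (edgeR adjusted p = 0.0146) and DDIT4, an mTORC1 inhibitor, one of 1.23 (edgeR adjusted p = 0.0424); metallothioneins are near copies of each other and the split of their reads is uncertain. ANGPTL4 kept its call in every alternative, and MT2A lost it without UCM replicate 2 (adjusted p = 0.0769) or UCM replicate 3 (0.0582). MT1X and PDK4 lost it without any 1 of the UCM libraries (adjusted p 0.0710 to 0.0866 and 0.129 to 0.195), and DDIT4 without any 1 library but ACM replicate 3 (0.0718 to 0.179). MT1X, PDK4 and DDIT4 also lost it with every gene of at least 1 count kept.

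**Figure D4:**
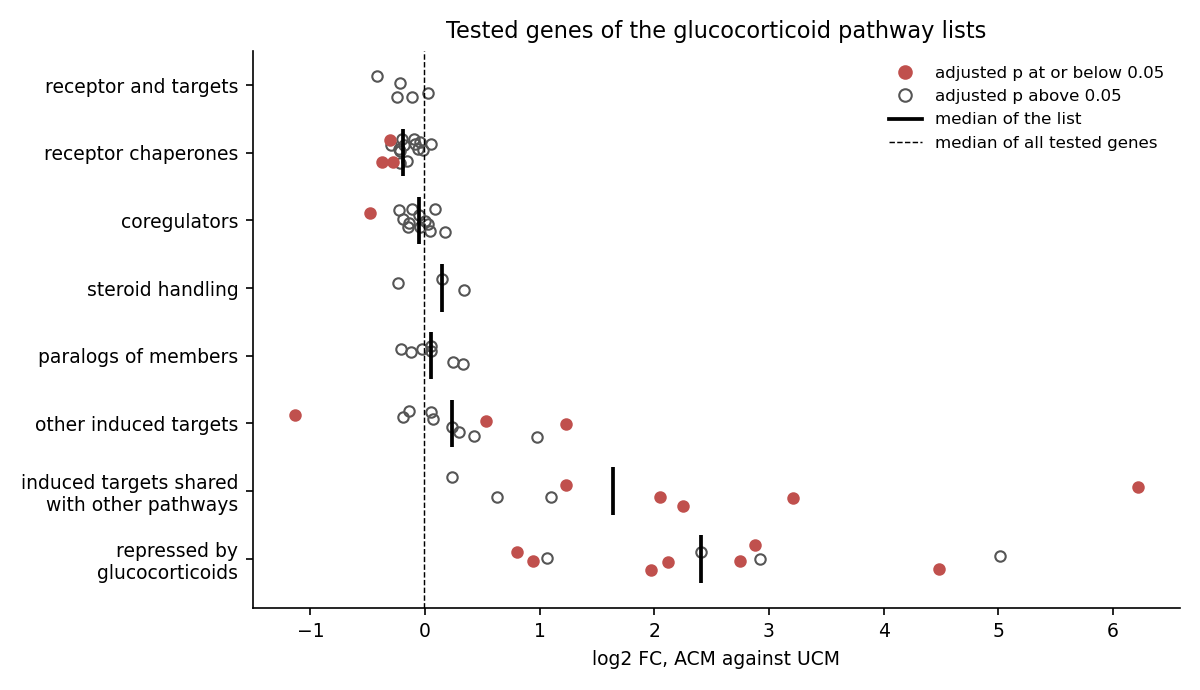
Log2 FC of ACM against UCM for the tested genes of 7 lists and, at the top, for the 5 tested members; each point is a gene, filled where its edgeR adjusted p was at or below 0.05, thick bars are list medians and the dashed line is the median of all tested genes. The members lie between -0.42 and 0.02 and the inflammatory genes between 0.80 and 5.01, where IL1B rests on 2 counts and PTGS2 on 10 counts in UCM.

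Of 15 listed inflammatory genes that glucocorticoids repress, 11 were tested. All 11 had a log2 FC above 0, with a median of 2.41. At edgeR's adjusted p, 7 rose, against 3.35% of all tested genes, and 0 fell. At an unadjusted p of 0.05 in edgeR, 10 were higher and 0 lower, against 11.9% of all genes higher. DESeq2 gave an adjusted p for 10 and called 9 higher and 0 lower, against 5.52% of all genes higher. Limma-trend on TPM gave one for 9 and called 6 higher and 0 lower, against 1.66% of all genes higher. The summed level of all 15 was 952.0, 1690 and 894.7 CPM in ACM and 502.2, 319.1 and 313.9 CPM in UCM, with ACM replicate 2 far above the others, and the median was 1.72 without that library. CCL2, a monocyte attractant, was at 24.6, 33.2 and 32.6 CPM in ACM and 19.1, 16.3 and 16.3 CPM in UCM, and rose with a log2 FC of 0.80 (edgeR adjusted p = 0.00893). ICAM1, an adhesion molecule for leukocytes, was at 188.5, 269.3 and 192.7 CPM in ACM and 114.8, 117.7 and 105.3 CPM in UCM, and rose with a log2 FC of 0.94 (edgeR adjusted p = 0.00975). The calls of CCL2 and ICAM1 were kept in every alternative. CXCL1, a neutrophil attractant, was at 270.1, 477.9 and 305.7 CPM in ACM and 110.7, 76.2 and 81.0 CPM in UCM (log2 FC 1.97, edgeR adjusted p = 0.0155), and CXCL2 had a log2 FC of 2.12 (edgeR adjusted p = 0.0192). For IL1B the counts were 52 in ACM and 2 in UCM, a ratio of 25.8 with a 95% Clopper-Pearson interval of 6.8 to 219 (edgeR adjusted p = 0.0170), an interval that covers counting error only and was added after the values were seen. Both UCM counts of IL1B were in replicate 1, without which the fitted log2 FC was 7.11 in place of 4.48, against a group at 0 counts. CXCL1 lost its call without UCM replicate 2 (adjusted p = 0.0870) or UCM replicate 3 (0.0849), CXCL2 without any 1 of the UCM libraries (0.0792 to 0.113), and IL1B without ACM replicate 2 (0.0806), UCM replicate 2 (0.0812) or UCM replicate 3 (0.0721). CXCL1 and CXCL2 also lost it with every gene of at least 1 count kept. Too low to be tested were IL1A (7 counts in ACM and 1 in UCM), TNF (18 and 6), CSF2 (33 and 3) and IL11 (15 and 6).

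The close relatives of the members did not pass the test either. Of 8 paralogs of SGK1, TSC22D3 and KLF9, 7 were tested, 4 with a log2 FC above 0 and 3 below. Their median of 0.05 turned to -0.0035 without ACM replicate 3, -0.05 without UCM replicate 1 and -0.01 without UCM replicate 3. EdgeR and DESeq2 called 0 of the 7 at the adjusted p, against 5.56% and 8.73% of all genes. Limma-trend on TPM called 0 of 6, against 2.66%. At an unadjusted p of 0.05 in edgeR, 2 were higher and 1 lower, against 11.9% and 11.5% of all tested genes. KLF13 was at 48.5, 64.6 and 59.1 CPM in ACM and 48.6, 43.8 and 44.1 CPM in UCM, with UCM replicate 1 just above ACM replicate 1 (log2 FC 0.33, edgeR adjusted p = 0.0972). TSC22D1 was at 107.3, 132.6 and 105.3 CPM in ACM and 97.6, 95.5 and 97.8 CPM in UCM, with no overlap (log2 FC 0.25, or 0.13 without ACM replicate 2, edgeR adjusted p = 0.136). With every gene of at least 1 count kept, KLF13 (adjusted p = 0.00723) and TSC22D1 (0.0427) passed, as did KLF13 without ACM replicate 1 (log2 FC 0.45, adjusted p = 0.0299), against a highest adjusted p of 0.316 and 0.395 with 1 library left out. SGK2 was too low to be tested (12 counts in ACM, 7 in UCM).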

How the data were processed

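According to the study's methods, paired-end reads of 6 polyA-enriched libraries were processed with Trim Galore (trimming), STAR (alignment to GRCh38) and RSEM (quantification); versions and annotation are not given in the sources used here. For each gene the authors deposited the expected count of RSEM (unscaled), the TPM and the effective length. Their table of fold changes, p-values and adjusted p-values was not used. Of 63140 identifiers, 61547 were found in GENCODE 44.

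After rounding of the expected counts to whole numbers, the groups were compared by edgeR 4.0.16 under R 4.3.3 (filterByExpr, TMM, robust quasi-likelihood fit, group as the only term, Benjamini-Hochberg adjustment over the 14451 genes tested). The common coefficient of biological variation was 0.115. CPM are TMM-scaled. The procedure was tested on simulated data. Alternatives were DESeq2 1.42.0, RLE size factors, a filter of 1 count in total or of 10 in each library, limma-trend (limma 3.58.1) on log2 TPM with 1 or 0.1 added, an effective length offset, the replicate number as a block, and each library left out in turn.

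The members and lists were chosen with earlier results of these data known. Named are the members, up to 5 genes of each list with the smallest adjusted p at or below 0.05 (else the 2 with the smallest p), untested list genes with their counts, and the 3 genes most correlated with each tested member. HSD11B2, PTGS2, ERRFI1, HSP90AA1, HSPA1A, HSPA1B, VIM and CDH2 are named outside this rule, HSD11B2 and ERRFI1 after their values had been seen. Added after values were seen were the search for the looser element, the search around each of the 17 RefSeq starts in place of 1 start per gene, the TPM overlap count, the IL1B interval and the alternatives for named list genes. Of the listed genes, 3 were not analysed here and 1 is not reported here.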

Additional observations from a re-analysis of the deposited data

How the results depend on the processing

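NR3C1, TSC22D3 and SGK1 were lower in ACM in all 14 alternatives. NR3C1 passed with at least 1 count in total (-0.24, adjusted p = 0.0386), and with 1 library left out ranged from -0.29 to -0.20. TSC22D3 ranged from -0.54 to -0.33 and SGK1 from -0.38 to -0.12, both passing without UCM replicate 1 (adjusted p = 0.0459 and 0.00832). FKBP5 ranged from -0.19 to 0.14, reversed without ACM replicate 3 (-0.19) and UCM replicate 2 (-0.04), and KLF9 from -0.19 to 0.018, reversed without UCM replicate 3 (0.018). The log2 ratio of ZBTB16 ranged from -0.70 to 0.42, reversed without ACM replicate 1 (0.068) and UCM replicate 2 (0.42), and was 0.00017 without UCM replicate 1. The causes were not tested.

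The number of members called was 1 with at least 1 count in total, against 6.76% of all tested genes. It was 0 to 2 with 1 library left out, where 1.32% to 8.92% of all tested genes were called. The number of genes called was 1724 with at least 1 count in total, 366 and 355 with limma-trend on TPM with 1 and 0.1 added, 362 with the effective length offset, and 195 to 1310 with 1 library left out. No scaling moved the median of all genes by more than 0.1. ERBB2 reversed with limma-trend (-0.058 with 1 and -0.059 with 0.1 added) and the offset (-0.043). Of 17 list genes named as called, 17 kept their direction in every alternative that gave a value (10 of 14 for IL1B, 13 for PDK4), and 4 kept their call in all 14. FKBP5 gave no value with the TPM filter and ZBTB16 only with DESeq2, at least 1 count in total and libraries left out. At the depth of FKBP5 and ZBTB16, small differences were not detectable.

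The replicate numbers were not taken as pairs in the main fit. Replicate 1 was the deepest library of each group (21053214 counts in ACM and 20975771 in UCM). It also had the most genes detected, 20906 in ACM and 20889 in UCM, against 19598 to 19890 in the other libraries. Deviations of same-numbered libraries correlated with r of 0.318, 0.0347 and 0.177, and ACM replicate 3 correlated best with UCM replicate 2 (0.196). The other differently numbered libraries gave r of -0.0146, -0.314, -0.223, -0.156 and -0.0168. Whether the numbers tie libraries together was not tested. With the replicate block, 1612 genes (11.2% of those tested) and 1 member were called, NR3C1 (log2 FC -0.25, edgeR adjusted p = 0.0272). FN1 passed with it (0.0248), and MT2A (0.0929), CXCL1 (0.115) and CXCL2 (0.0542) did not.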
